A study of Mus musculus with 2 samples.

Results

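Semaphorins are a family of secreted and membrane-bound guidance proteins, and 8 of their genes were followed here in mouse lung endothelial cells (ECs) after the arrival of melanoma cells: Sema5a, Sema3a, Sema3c, Sema3f, Sema3g, Sema6a, Sema6d and Sema7a. They were chosen by name out of the 32285 genes in the count matrices, because Sema5a was already known, from earlier results of the same data, to be among the genes with the strongest fall in general capillary ECs. The ratio between the B16-F10 and the control library that selected Sema5a is therefore given as a description, and no test was made on it.

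Semaphorins were first described as cues that turn growing axons, and they steer vessel growth as well. The class 3 members (Sema3a, Sema3c, Sema3f and Sema3g) are secreted and bind neuropilins, which pass the signal on with plexin-A partners or with Plxnd1, a plexin of blood vessels. Sema5a spans the membrane and carries thrombospondin repeats outside the cell, Sema6a and Sema6d are transmembrane ligands of plexin-A receptors, and Sema7a is tied to the membrane by a lipid anchor and signals through integrin beta 1 and Plxnc1. In lung, endothelial cells line general capillaries (gCap), the thin aerocyte capillaries of gas exchange (aCap), arteries, veins and lymphatic vessels (LEC).

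Cells came from lungs of wild-type C57BL/6 mice, males of 8 to 10 weeks by the study's methods. Control mice received 100 µl of phosphate-buffered saline through the tail vein, B16-F10 mice received 400000 B16-F10 cells in the same volume, and lungs were taken 6 h later in both groups. The B16-F10 line derives from a mouse melanoma of the skin and was stained here with a green cell tracker. Per the labels there were 2 mice per treatment, whereas the methods describe 3 pooled animals, and in either case the cells of a treatment formed 1 library, so no difference below has a replicate check. The labels describe a sort for Pecam1-positive, Ptprc-negative cells, with tracker-positive melanoma cells collected as well from the injected lungs, so the B16-F10 library was made to hold tumor cells and the control library was not.

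The control matrix held 85794655 UMIs (unique molecular identifiers, each standing for 1 captured RNA molecule) and the B16-F10 matrix 104978816. After limits of 1000 to 5000 genes per cell and under 20% mitochondrial UMIs, and removal of likely doublets, 7830 control and 7767 B16-F10 cells were kept, with medians of 7500 and 8544 UMIs. The kept cells of both libraries shared 18 barcodes. Clusters were named from marker genes, with every semaphorin, receptor and pathway gene described here left out of the clustering, and are called "-like" for that reason. gCap-like ECs numbered 4883 in control and 4496 in B16-F10, aCap-like ECs 1455 and 968, artery-like ECs 186 and 138, vein-like ECs 297 and 287, and LEC-like ECs 57 and 51. Another 471 and 1099 ECs stayed unnamed. Different clusters held most of both capillary classes in the 2 libraries. Of gCap-like ECs, 1511 control cells but 670 B16-F10 cells lay in cluster 0 (led by Glb1l2 and Ankrd63), and 76 against 1035 lay in cluster 4 (led by Lalba, Tmem252 and Adamts9). Of aCap-like ECs, 179 against 798 lay in cluster 7 (led by Ccdc184 and Cdkn2b) and 758 against 102 in cluster 8 (led by Fibin).

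Genes of other cell types moved along with the libraries. In gCap-like ECs the 8 melanoma markers together stood at 1.31 CPM (UMIs of the gene scaled to a class total of 1000000) in control, where Mlana, Tyrp1 and Slc45a2 were at 0, and at 35.9 CPM in B16-F10, where none was at 0. The 8 mural markers stood at 21.6 and 41.9 CPM, the 8 macrophage and monocyte markers at 18.3 and 31.8, the 6 neutrophil markers at 2.84 and 7.88, and the 8 epithelial markers at 197 and 166. The leukocyte gene Ptprc stood at 0.273 and 1.35 CPM. In aCap-like ECs the melanoma markers stood at 2.35 and 30.1 CPM and the mural markers at 6.53 and 12.7. The melanoma markers stood at 1.41 and 49.0 CPM in artery-like, 0.642 and 27.0 in vein-like and 4.27 and 24.9 in LEC-like ECs. The 5 red cell markers stood at 1193 and 1472 CPM in gCap-like, 1988 and 977 in aCap-like, 727 and 1037 in artery-like, 515 and 3496 in vein-like and 666 and 1076 in LEC-like ECs. Their part in the results was not tested. Melanoma-like cells held no UMI of Sema5a, 18 of Sema3c and 2 of Sema7a in 77 cells. A filter on melanoma, mural, macrophage and monocyte, neutrophil, lymphoid, platelet, fibroblast and epithelial markers kept gCap-like cells with no UMI of them. It did not cover red cell markers or Ptprc, and kept 1201 control and 549 B16-F10 cells. In these cells, called below cells without UMIs of other cell types, the log2 ratio (B16-F10 over control) was -3.75 for Sema5a and 1.40 for Sema7a. The filter was applied to cells of unequal depth, and a shallow cell passes it more easily. It kept different shares of the libraries, from 4883 control and 4496 B16-F10 cells. The part of this selection in the shifted ratios was not tested. Fewer transcribing cells and less RNA per cell can be separated only in part here, since a cell without a UMI may still express the gene.

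The members lie on several chromosomes (coordinates from GRCm38, GENCODE M21). Sema5a covers chr15:32244810-32696341 on the plus strand, a span of 451532 bases. Sema3a covers chr5:13125414-13602565 and Sema3c chr5:17574281-17730268, both on the plus strand, and Sema6d covers chr2:124089969-124667770 on the plus strand. Sema3g covers chr14:31217860-31230352 on the plus strand, Sema3f chr9:107681500-107710475 on the minus strand, and Sema7a chr9:57940112-57962865 on the plus strand.

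The start regions of the members with the strongest shift in either direction, Sema5a (lower) and Sema7a (higher), are shown to set them side by side. Each is 300 bases of RefSeq sequence on GRCm38.p6, plus strand, from 250 bases before to 50 bases after the annotated start, and capitals mark GC boxes (GGGCGG on either strand, overlapping matches included), the binding motif of the general activator Sp1. Sema5a's window is chr15:32244563-32244862 and Sema7a's chr9:57939862-57940161.
Sema5a: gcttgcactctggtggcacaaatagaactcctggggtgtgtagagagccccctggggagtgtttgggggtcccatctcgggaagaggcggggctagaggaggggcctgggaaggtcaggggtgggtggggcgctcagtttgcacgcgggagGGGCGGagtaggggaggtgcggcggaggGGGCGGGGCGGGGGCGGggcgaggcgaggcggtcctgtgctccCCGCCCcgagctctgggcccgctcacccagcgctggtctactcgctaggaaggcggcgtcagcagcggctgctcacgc
Sema7a: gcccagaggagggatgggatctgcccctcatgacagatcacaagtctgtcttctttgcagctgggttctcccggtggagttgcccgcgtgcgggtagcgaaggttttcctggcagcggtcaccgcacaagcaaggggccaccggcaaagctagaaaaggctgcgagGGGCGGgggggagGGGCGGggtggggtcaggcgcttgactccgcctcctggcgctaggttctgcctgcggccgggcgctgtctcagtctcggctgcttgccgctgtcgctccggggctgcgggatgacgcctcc
The Sema5a window held 5 GC boxes at 71.3% G and C, and the Sema7a window 2 at 67.3%. RefSeq start regions were matched for 6 of the 8 members, in 7 windows, and the others held 3 GC boxes for Sema3c, 1 for Sema3g, 2 and 0 for the windows of Sema6d, and 0 for Sema3a. Both windows with 0 lie at annotated starts deep inside the gene spans given above. They are chr5:13396534-13396833 for Sema3a and chr2:124653331-124653630 for Sema6d. A GC box was present in 35.7% of all 32851 windows of this length. The other motifs searched on both strands were a STAT site (TTCNNNGAA, in 8.30% of all windows), an AP-1 site (TGANTCA, 7.81%), an NF-kB site (8.46%) and the E-box CACGTG (7.15%). Of these, only the E-box was found in a member's window, once, in Sema6d. These are letter matches and not measured binding.

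Sema5a was far lower in gCap-like ECs after melanoma injection. The gene had 3161 UMIs in control against 393 in B16-F10, which is 86.4 CPM (95% exact Poisson interval 83.4 to 89.5) against 9.99 CPM (9.03 to 11.0). The level was 8.65-fold lower, a log2 ratio of -3.11 (exact conditional interval -3.27 to -2.96), and 3rd lowest of the 13259 genes with at least 50 UMIs over both libraries. All intervals cover counting error only, and not the difference between mice or preparations. Those of CPM and ratios also leave out differences between cells, since UMIs were summed over cells. Free RNA in the droplets, estimated from near-empty barcodes, would supply 0.716 CPM in control and 0.300 in B16-F10, so that nearly all of the Sema5a signal of both libraries was above it.

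Both the share of cells with Sema5a RNA and its amount per positive cell were lower. In control, 997 of 4883 gCap-like cells (20.4%) had a Sema5a UMI, with 3.17 UMIs per positive cell, and in B16-F10 241 of 4496 (5.36%), with 1.63 UMIs. Cells with 3 or more UMIs numbered 394 in control (8.07%) and 35 in B16-F10 (0.778%), and the highest cell held 28 and 14. With every cell thinned to 2000 UMIs, to remove the difference in depth, the share was 10.4% (exact interval 9.56 to 11.3, 502 of 4821 cells) against 1.79% (1.42 to 2.22, 80 of 4468). Thinning left out 62 control and 28 B16-F10 cells that were shallower. In melanoma-like cells, 0 of 77 cells had a Sema5a UMI at a median of 8200 UMIs. A limit of 3 counts would be a share of 3.90% of these cells, and the exact interval reaches 4.68%. Neither value limits the cells that express the gene unseen. gCap-like cells had medians of 7313 and 8444 UMIs.

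The lower level of Sema5a was seen in each gCap-like cluster. Control levels ran from 62.5 CPM in cluster 2 (led by Chrm2 and Vegfc) to 157 in cluster 3 (led by Zswim5), and B16-F10 levels from 6.55 CPM in cluster 2 to 20.3 in cluster 1 (led by Ntrk2). In cluster 4, where most cells came from B16-F10, Sema5a stood at 83.6 CPM in the 76 control cells (interval 61.8 to 110) and at 7.44 in the 1035 B16-F10 cells (5.83 to 9.36). In cluster 0, the main control cluster, it stood at 77.0 and 6.66 CPM. No B16-F10 value of these clusters reached the lowest control value. Near-empty barcodes, which were in no cluster, held 46.2 CPM of Sema5a in control and 12.8 in B16-F10.

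aCap-like ECs had the highest Sema5a level of the 5 vessel classes and a smaller difference. Sema5a had 2044 UMIs in control against 551 in B16-F10, or 155 CPM (149 to 162) and 50.7 CPM (46.5 to 55.1), which is 3.06-fold lower. The log2 ratio was -1.62 (-1.75 to -1.48), 32nd lowest of 11118 genes. Its interval did not overlap that of gCap-like ECs, though the difference between the classes has no test over samples. Here the clusters differed in extent. In cluster 7 Sema5a stood at 73.7 CPM in control (62.4 to 86.4) and 48.6 in B16-F10 (44.3 to 53.3), whereas in cluster 8 it stood at 150 and 67.8 CPM and in cluster 9 (led by Tmeff2) at 230 and 52.4. Cluster 7 held most B16-F10 cells of the class and clusters 8 and 9 most control cells, so the class ratio mixes clusters of different control level. In control 584 of 1455 cells (40.1%) had a UMI, in B16-F10 265 of 968 (27.4%), and after thinning the shares were 19.3% and 10.1%.

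The other vessels held little Sema5a. Artery-like ECs had 27 UMIs in control (19.0 CPM, 12.5 to 27.6) and 2 in B16-F10 (1.56 CPM, 0.188 to 5.62), vein-like ECs 10 and 3, and LEC-like ECs 2 and 2, all under the 50 UMIs asked for a ratio. The order in control was aCap-like, gCap-like, artery-like, LEC-like and vein-like ECs, and the interval of LEC-like ECs (0.517 to 15.4 CPM) overlapped those of both its neighbors in that order, artery-like and vein-like ECs (1.54 to 5.91). In B16-F10, aCap-like ECs stood apart from all others, and gCap-like ECs overlapped LEC-like ECs at 4.16 CPM (0.503 to 15.01).

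**Figure D1:**
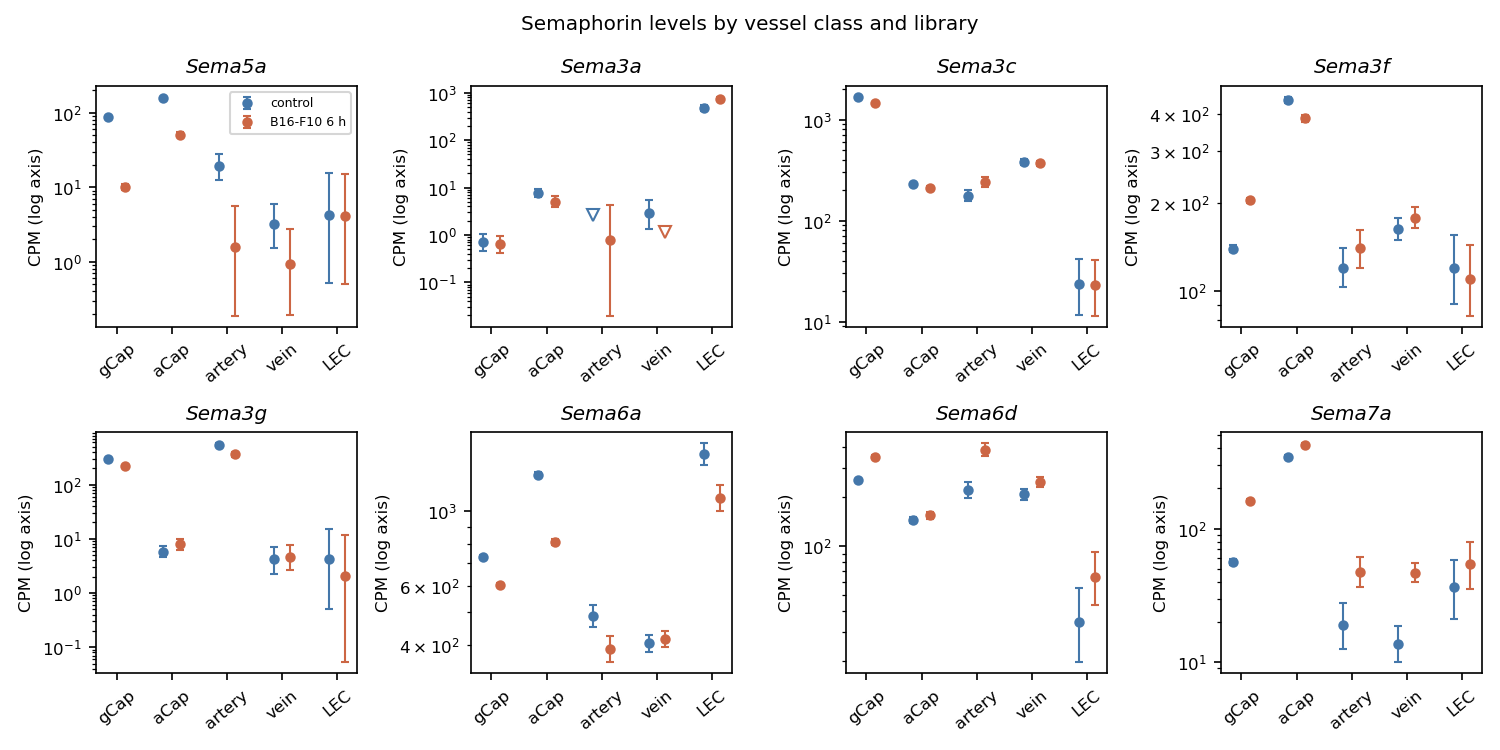
Level of each semaphorin gene (CPM, log axis, scale set per panel) in 5 vessel classes, control in blue and B16-F10 6 h in orange, 1 library each. Bars are exact Poisson 95% intervals and open triangles mark the upper bound where no UMI was found. In gCap-like ECs Sema5a drops from 86.4 to 9.99 CPM while Sema7a climbs from 56.3 to 162.

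Sema3c, a secreted semaphorin that acts on neuropilins and Plxnd1 in vessel and heart outflow development, hardly differed between the libraries in capillaries. gCap-like ECs held 60764 UMIs of it in control and 57754 in B16-F10, or 1661 and 1468 CPM, a log2 ratio of -0.18 (-0.19 to -0.16). In aCap-like ECs it stood at 228 and 210.1 CPM, with a ratio of -0.12 (-0.20 to -0.04). Artery-like ECs leaned the other way, from 177 to 243 CPM (0.46, 0.22 to 0.71), but not under every setting, since with no upper limit on genes per cell the ratio was -0.27. Vein-like ECs stood at 380.3 and 371 CPM (-0.04, -0.15 to 0.08). LEC-like ECs held 11 UMIs in each library. Within gCap-like ECs the clusters were far apart, and in control they ran from 979 CPM in cluster 0 to 2440 in cluster 5.

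Sema3f, a secreted ligand of neuropilin-2, was higher in B16-F10 gCap-like ECs. Its UMIs there numbered 5105 and 8007, or 139.5 CPM (136 to 143) and 204 CPM (199 to 208), with a log2 ratio of 0.54 (0.49 to 0.60). Each of the 6 gCap-like clusters was higher in B16-F10, the narrowest pair being 162 and 197 CPM in cluster 2. In aCap-like ECs, where the level was highest, it stood at 446 CPM in control and 387 in B16-F10, a ratio of -0.21 (-0.26 to -0.15). Artery-like (120.3 and 140.0 CPM), vein-like (163 and 178) and LEC-like ECs (119.6 and 110.1) overlapped between the libraries.

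Sema3g, a secreted ligand known from arterial endothelium, was highest in artery-like ECs in both libraries. Artery-like ECs held 761 of its UMIs in control and 465 in B16-F10, or 536 CPM (498 to 575) and 362 CPM (329 to 396), a log2 ratio of -0.57 (-0.74 to -0.40), which fell short of a call with at least 500 genes asked for (-0.43), with the listed genes kept in clustering (-0.36) and with no upper limit on genes per cell (-0.31). gCap-like ECs came next, with 295 and 225 CPM (-0.39, -0.43 to -0.35). In aCap-like ECs it stood at 5.77 and 7.91 CPM, where free RNA would supply 2.17 and 2.30, and the interval of the ratio (0.45, -0.01 to 0.92) included 0, with -0.22 when doublets were kept. Vein-like and LEC-like ECs held 15 UMIs or fewer in each library.

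Sema3a, the founding secreted semaphorin, which repels axons through neuropilin-1 and takes part in lymphatic valve formation, was a gene of LEC-like ECs. There it had 222 UMIs in 57 control cells and 354 in 51 B16-F10 cells, or 474 CPM (414 to 541) and 736 CPM (661 to 816), a log2 ratio of 0.63 (0.39 to 0.88), or 0.48 with doublets kept. In control 52 of the 57 cells had a UMI and in B16-F10 44 of the 51, so without thinning a similar share of cells held 4.27 UMIs each in control and 8.05 in B16-F10. Thinned to 2000 UMIs, the share was 43.9% (30.7 to 57.6) in control and 66.7% (52.1 to 79.2) in B16-F10. At 4000 UMIs it was 78.8% and 78.3%. gCap-like ECs held 26 and 25 UMIs (0.711 and 0.636 CPM), with an interval of -1.01 to 0.69 around the ratio of -0.16. aCap-like ECs held 100 and 55, or 7.60 and 5.06 CPM, a ratio of -0.59 (-1.09 to -0.10), which was -0.47 with no upper limit on genes, -0.39 in cells without UMIs of other cell types and -1.31 after thinning. Artery-like and vein-like ECs held 9 UMIs or fewer.

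Sema6a, a transmembrane ligand and receptor that pairs with plexin-A2 and plexin-A4, was called lower in aCap-like ECs. aCap-like ECs held 16907 of its UMIs in control against 8798 in B16-F10, or 1284 CPM (1265 to 1304) and 809 CPM (792 to 826), a log2 ratio of -0.67 (-0.70 to -0.63), or -0.44 without cluster 9, whose cells were shallow. The 3 aCap-like clusters were all lower, from 985 to 809 CPM in cluster 7, 1091 to 622 in cluster 8 and 2061 to 1451 in cluster 9. In gCap-like ECs it stood at 732 and 605 CPM (-0.28, -0.30 to -0.25). LEC-like ECs had the highest level in both libraries, 1476 and 1095 CPM (-0.43, -0.60 to -0.27), short of a call. Artery-like ECs stood at 488 and 389 CPM (-0.33, -0.50 to -0.16) and vein-like ECs at 404 and 418 (0.05, -0.07 to 0.16).

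Sema6d, a transmembrane partner of plexin-A1 studied in heart chamber formation, was called higher in artery-like ECs alone among the vessel classes. It had ratios above 0 but short of a call in gCap-like, aCap-like and vein-like ECs. The gCap-like values were 251 CPM (246 to 257) and 351 CPM (345 to 357), a log2 ratio of 0.48 (0.44 to 0.52), or 0.52 when scaled by the median gene. The artery-like values were 220.3 CPM (197 to 246) and 387 CPM (353 to 422), from 313 and 497 UMIs, with a ratio of 0.81 (0.60 to 1.02), which fell short of a call at 0.28 with no upper limit on genes and at 0.48 after thinning. Vein-like ECs stood at 207 and 245 CPM (0.25, 0.095 to 0.40), but the ratio was -0.32 in cells without UMIs of other cell types. In aCap-like ECs Sema6d stood at 144 and 154 CPM, with a ratio of 0.10 (0.0003 to 0.19), which was -0.037 after thinning. LEC-like ECs held 16 and 31 UMIs. The highest level was in a cluster with no vessel name, cluster 12 (led by Csf2, Sox9 and Prnd), which held 8 control and 303 B16-F10 cells. Sema6d stood at 1057 CPM in its B16-F10 cells, and Sema6a at 79.3, the lowest Sema6a level among the EC clusters with at least 50 cells in that library.

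Sema7a, the lipid-anchored semaphorin that acts on integrin beta 1 and Plxnc1 and is known from immune cells and inflamed endothelium, was the member with the highest ratio. gCap-like ECs held 2060 of its UMIs in control against 6368 in B16-F10, or 56.3 CPM (53.9 to 58.8) and 162 CPM (158 to 166), 2.88-fold higher. The log2 ratio was 1.52 (1.452 to 1.596), and 169 of the 13259 genes measured had a higher one. The share of cells with a UMI was 28.7% in control and 55.6% in B16-F10, and 10.6% (9.78 to 11.5) and 23.6% (22.4 to 24.9) after thinning. Cells with 3 or more UMIs made up 3.07% and 19.0%. Every gCap-like cluster was higher in B16-F10, the lowest pair being 45.8 and 90.8 CPM in cluster 2. Cluster 4 held the highest values of both libraries, 118 CPM in control (91.6 to 149) and 308 in B16-F10 (298 to 320).

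Veins and arteries showed the same direction at lower levels. Vein-like ECs had 43 and 151 UMIs of Sema7a, or 13.8 CPM (10.0 to 18.6) and 46.9 CPM (39.7 to 55.0), a log2 ratio of 1.76 (1.27 to 2.29). The vein value was 2.59 with cells thinned to 2000 UMIs. Artery-like ECs had 27 and 61 UMIs, or 19.0 and 47.4 CPM, with a ratio of 1.32 (0.64 to 2.03), which was 0.19, short of a call, in the 52 control and 13 B16-F10 cells without a UMI of another cell type's markers. Beside these values, the red cell markers of vein-like ECs stood at 515 and 3496 CPM and their mural markers at 84.5 and 45.7, and the platelet markers of artery-like ECs at 5.63 and 35.8 CPM. aCap-like ECs had the highest level in both libraries, 344 and 422 CPM, and a ratio of only 0.29 (0.23 to 0.35). LEC-like ECs held 17 and 26 UMIs. The gap between gCap-like and aCap-like ECs was thus narrower in B16-F10, 162 against 422 CPM, than in control, 56.3 against 344.

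**Figure D2:**
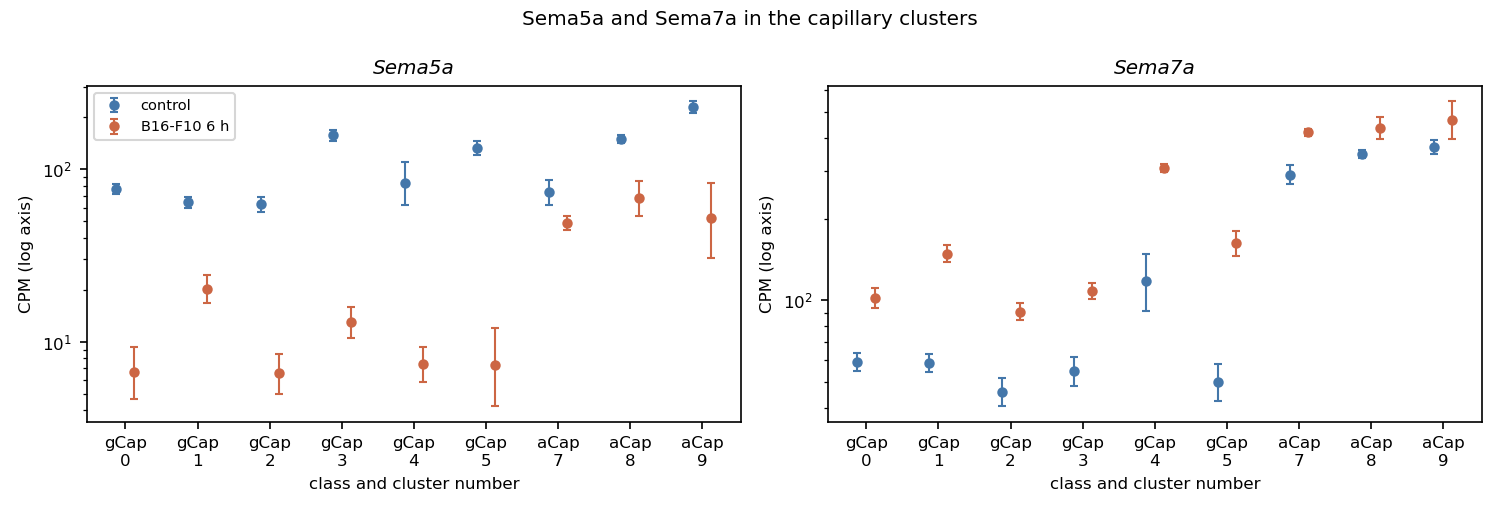
Sema5a (left) and Sema7a (right) in the 6 gCap-like and 3 aCap-like clusters, in CPM on a log axis, control in blue and B16-F10 6 h in orange, with exact Poisson 95% intervals. In every gCap-like cluster the control point lies above the B16-F10 point for Sema5a and below it for Sema7a.

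A gene was called higher or lower where it had at least 50 UMIs over both libraries, a log2 ratio of at least 0.5 in size and a counting interval that left out 0. In gCap-like ECs, where Sema5a was selected, 2 of the 8 members were called higher (Sema3f and Sema7a), beside 9.18% of all genes measured in that class, and 1 was called lower (Sema5a), beside 11.7%. In aCap-like ECs 0 of 8 were called higher (8.5% of all genes) and 3 lower (9.86%), namely Sema5a, Sema3a and Sema6a. In artery-like ECs 2 of 6 measured members were called higher (9.12% of all genes), Sema6d and Sema7a, and 1 lower (8.18%), Sema3g. In vein-like ECs 1 of 5 was called higher (5.71% of all genes), Sema7a, and 0 lower (6.39%). In LEC-like ECs 1 of 3 was called higher (7.58% of all genes), Sema3a, and 0 lower (6.87%). With so few members these counts do not set the family apart from the background, and the median ratio of the 8 members in gCap-like ECs was -0.17, beside -0.04 for all genes.

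**Figure D3:**
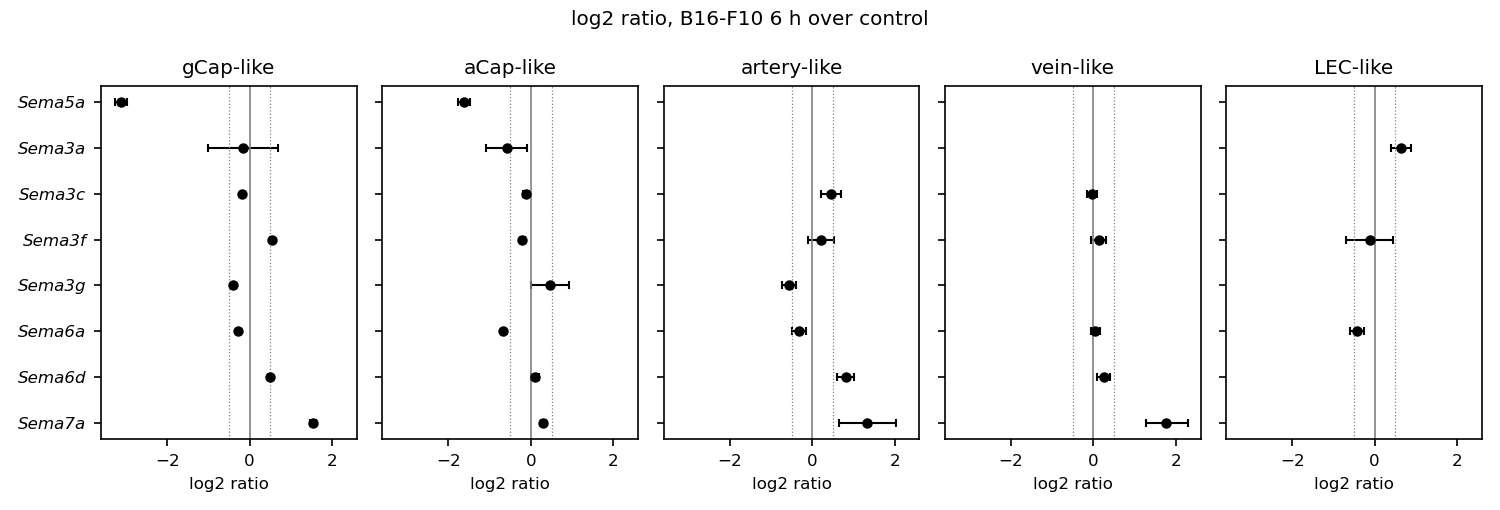
log2 ratio of B16-F10 6 h over control for each semaphorin with at least 50 UMIs, by vessel class. Bars are exact conditional 95% intervals for counting error, the solid line marks no difference and dotted lines mark 0.5 on either side. Sema5a lies at -3.11 in gCap-like and -1.62 in aCap-like ECs, and Sema7a lies above 0 in each class where it was measured.

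The study described a reactive capillary state (rCap), and its marker genes were summed here into a score per cell, to ask how the members went with that state inside each library. The score used 43 of those genes, none of them a member, counted in cells thinned to 2000 UMIs. The study chose these genes on data that include the present libraries, so the score does not mark the state independently, and the low, middle and high groups, cut at its tertiles within each library, are ranges of a continuous value with many cells near each limit. Its range was 3 to 71 UMIs in control and 7 to 118 in B16-F10, so the groups of the libraries are not matched to each other.

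Sema7a went up with the score within B16-F10 gCap-like ECs, from 89.8 CPM (84.8 to 95.01) in the low group through 134 to 265 CPM (256 to 274) in the high group. In control it stood at 51.1, 58.2 and 60.8 CPM. Sema6d and Sema3f showed a similar step, with 318, 308 and 429 CPM for Sema6d and 173 CPM, 189 CPM and, in the high group, an interval of 241 to 259 CPM for Sema3f in B16-F10, whereas in control Sema6d stood at 273, 241 and 233 CPM and Sema3f at 137, 135 and 147. Sema3c, Sema3g and Sema6a went down, from 1727 to 1100 CPM, from 264 to 187 and from 666 to 508 between the low and high groups of B16-F10. In control the corresponding steps were smaller for these 3 genes, from 1842 to 1497 CPM, from 303 to 286 and from 777 to 660.

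Sema5a was lower at higher scores in both libraries. It stood at 111 CPM (105 to 117), 73.0 and 69.6 CPM (65.0 to 74.4) from the low to the high group of control and at 12.6 (10.8 to 14.6), 9.41 and 7.80 CPM (6.34 to 9.48) in B16-F10. Even the low group of B16-F10 cells lay below every group of control. Median depths of the groups lay between 7260 and 7468 UMIs in control and between 8336 and 8564 in B16-F10.

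**Figure D4:**
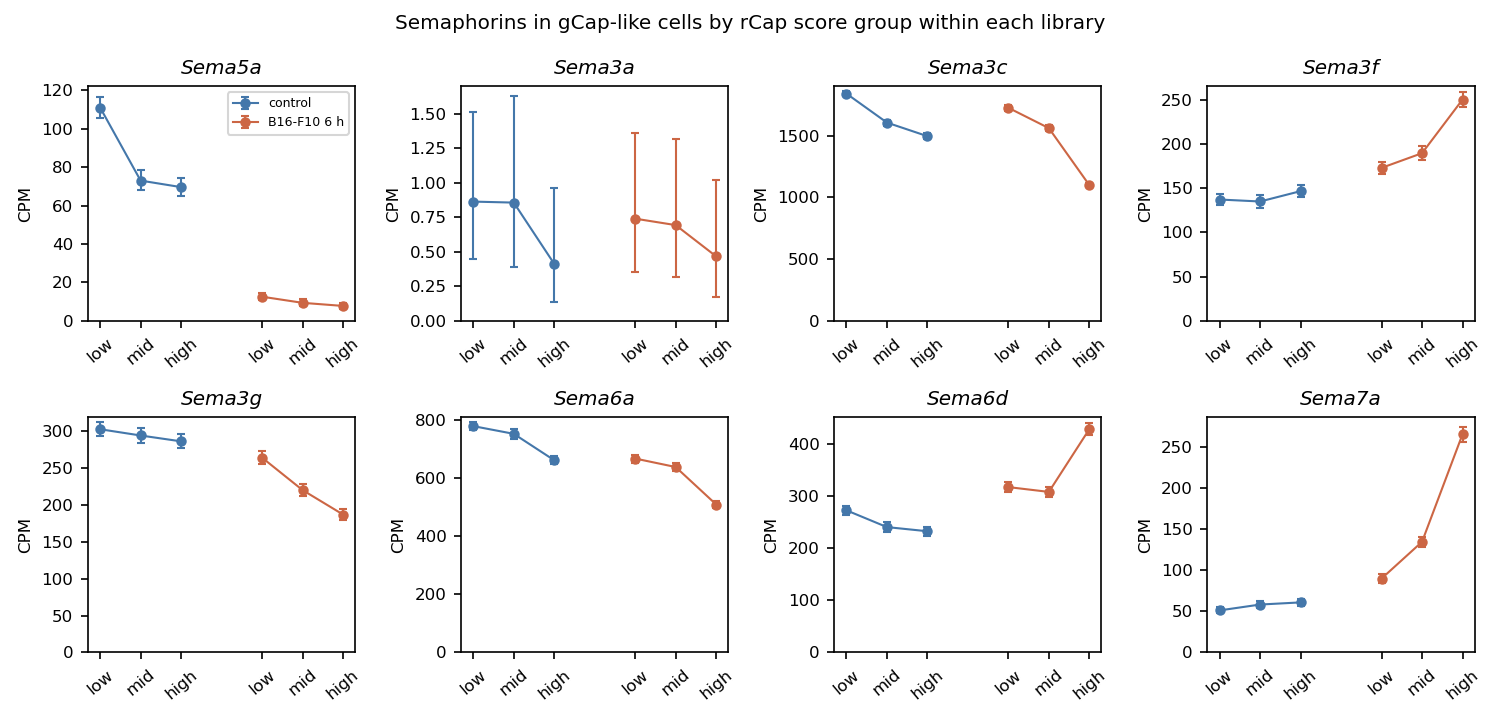
Level of each semaphorin (CPM, linear axis from 0) in gCap-like ECs split into low, middle and high rCap score within each library, control in blue and B16-F10 6 h in orange, with exact Poisson 95% intervals. Sema7a runs from 89.8 to 265 CPM across the B16-F10 groups, and Sema5a stays at 12.6 CPM or below in all 3.

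Of the 12 other semaphorin genes listed, 7 were measured in gCap-like ECs, 4 were called higher and 0 lower, beside 9.18% and 11.7% of all genes. Sema5b, the closest relative of Sema5a, had 7 control and 86 B16-F10 UMIs, or 0.191 and 2.19 CPM (log2 ratio 3.51, 2.41 to 4.87), and 56 of the 86 lay in cluster 4. Sema6b, a transmembrane relative of Sema6a, stood at 7.19 and 21.6 CPM (1.59, 1.39 to 1.79), with 404 of its 851 B16-F10 UMIs in cluster 4. Sema3b, a secreted member, stood at 3.25 and 5.19 CPM (0.67, 0.34 to 1.01), and Sema4c, a transmembrane ligand of plexin-B2, at 21.2 and 32.4 CPM (0.61, 0.48 to 0.74). The pair of class 5 genes therefore lay on opposite sides, with Sema5b at 2.19 CPM or less in both libraries. The median ratio of the 7 genes was 0.61.

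Among 16 receptor genes, 11 were measured in gCap-like ECs, of which 2 were called higher and 0 lower, beside 9.18% and 11.7% of all genes measured. Nrp2, the neuropilin that binds Sema3c, Sema3f and Sema3g, stood at 3.88 CPM in control and 10.7 in B16-F10 (1.46, 1.19 to 1.75). Plxnb2, the receptor of class 4 semaphorins, stood at 11.2 and 19.0 CPM (0.76, 0.59 to 0.94). Nrp1, the neuropilin of Sema3a and a co-receptor for VEGF, stood at 738 and 598 CPM (-0.30, -0.33 to -0.28). Plxna1 had a ratio of -0.50 (-0.56 to -0.44), just short of a call, Plxna4 of -0.17, Plxna2 of 0.37, Plxnd1 of 0.47, Plxnb1 of 0.48 and Plxnc1, the receptor of Sema7a, of 0.26. In aCap-like ECs Plxnd1 stood at 14.6 and 35.7 CPM (1.29, 1.04 to 1.55) and Plxnb2 at 8.51 and 18.9 (1.15, lower bound 0.82). In artery-like ECs Plxnc1 had 23 and 43 UMIs (1.05, 0.28 to 1.84), and in vein-like ECs Plxnb2 had 49 and 116 (1.20, 0.70 to 1.71).

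**Figure D5:**
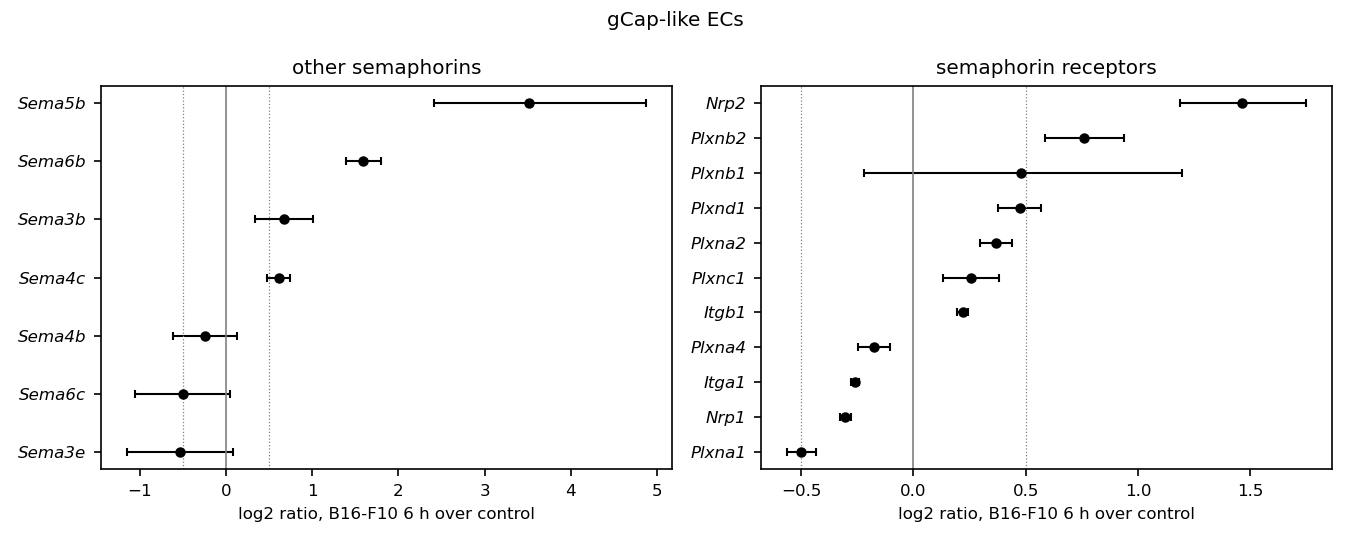
log2 ratio of B16-F10 6 h over control in gCap-like ECs for other semaphorins (left) and for semaphorin receptors (right) with at least 50 UMIs. Bars are exact conditional 95% intervals and dotted lines mark 0.5 on either side. Sema5b (3.51), which reached 50 UMIs only through B16-F10, and Nrp2 (1.46) have the highest ratios of their panels.

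Inside the cell, 29 of 31 listed genes of semaphorin signalling were measured in gCap-like ECs, with 4 called higher and 1 lower, against 9.18% and 11.7% of all genes. Rnd1, a small GTPase that opens plexins for activation, stood at 1.28 and 4.75 CPM (1.89, 1.42 to 2.38), and in artery-like ECs it had 20 and 64 UMIs (1.82, 1.08 to 2.63). Fes, a tyrosine kinase downstream of plexin-A1, had a ratio of 0.75, Cfl1, which cuts actin filaments, of 0.62, and Rap1b, a GTPase switched off by plexins, of 0.53. Arhgef11, which plexin-B receptors bind, stood at 91.1 and 58.4 CPM (-0.64, -0.72 to -0.56). The median ratio of this list was 0.08.

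Of 38 other guidance genes listed, 18 were measured in gCap-like ECs, with 1 called higher and 6 lower, beside the 9.18% and 11.7% of all genes given above. Efna5 had 50 and 12 UMIs (-2.16, -3.21 to -1.23), Robo2, a Slit receptor, 41 and 13 (-1.76, -2.79 to -0.83), and Efnb2, the arterial ephrin, stood at 712 and 406 CPM (-0.81, -0.84 to -0.78). Efna1 had a ratio of -0.65, Epha4 of -0.59 and Slit2 of -0.54, whereas Ntn1, which codes for netrin-1, stood at 158 and 265 CPM (0.75, 0.71 to 0.80). The median ratio of the 18 genes was -0.16. No test compares these lists with other genes.

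Across the 5 vessel classes of both libraries (10 points of log2(CPM + 1)), the genes whose pattern was most like that of Sema5a, out of 14226 with at least 50 UMIs, were Spen (Pearson r = 0.97), Gm15477 and Gsk3b (0.94 each), Enpp2 and Atp8a1 (0.93 each). The points share 2 libraries and differ in depth, so r is given as a description. None of them had a gCap-like difference as wide as that of Sema5a, since r does not measure the size of a difference. Spen stood at 81.0 and 63.0 CPM in gCap-like, 87.6 and 74.5 in aCap-like and 57.7 and 64.4 in LEC-like ECs. Atp8a1, a phospholipid flippase, stood at 344 and 175 CPM in gCap-like ECs and at 1531 and 855 in aCap-like ECs, and Gsk3b, a kinase that was also on the signalling list, at 300.1 and 248 CPM in gCap-like ECs. Gm15477 stood at only 0.793 and 0.330 CPM in gCap-like ECs and at 0.912 and 0.920 in aCap-like ECs. Its r therefore rests on low counts.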

How the data were processed

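The data are single-cell RNA sequencing libraries, 1 for each of 2 groups. The authors deposited UMI counts per gene and barcode, not normalized and with near-empty barcodes kept. The submitters' processing notes name Cell Ranger 7.2.0, Seurat 4.4.0 and the mm10 genome, while the paper's methods name an older Cell Ranger, and whether intronic reads were counted is not given in the sources used here. Such counts come from the 3' end of transcripts, so levels are compared between cells and not between genes.

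The matrices held 1597090 control and 1779952 B16-F10 barcodes, and 36 of those with at least 300 genes were shared. A barcode was kept as a cell where it had between 1000 and 5000 genes and below 20% of its UMIs from mitochondrial genes. The cells with the highest Scrublet scores (scanpy 1.11.5) were removed as doublets at 0.8% per 1000 cells, 564 control and 554 B16-F10. Counts were scaled to 10000 per cell, logged and standardised within each library, 2928 of 3000 variable genes entered 30 principal components, and a shared-neighbor graph of 20 neighbors was split by leidenalg 0.10.2 (resolution 0.8) into 25 clusters. A cluster was named where 6 of 8 endothelial markers were in at least 50% of its cells and at least 3 markers, and 50% of a class's list, were in at least 10% of cells and 1.5 times the mean over all remaining clusters. Clusters that also met the rule for a non-endothelial list, red cells excepted, were set aside as mixed (456 control and 530 B16-F10 cells). Clusters 6 and 15, which met it for red cell markers alone, stayed among the unnamed ECs.

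UMIs were summed per class and library. CPM carry exact Poisson intervals, ratios exact conditional binomial intervals and shares Clopper-Pearson intervals, all at 95% and for counting error only. With 1 library per group no test was possible. The code for intervals and calls was checked on simulated Poisson counts. These follow the model the intervals assume, with no variation between cells or mice. They do not show how well the intervals hold for real counts. Free RNA was estimated from barcodes with 1 to 100 UMIs, scaled by epithelial, neutrophil and lymphoid genes. Gene coordinates came from GENCODE M21, which held 32235 of the 32285 gene identifiers. Named genes were the 8 members, the pathway genes called in gCap-like ECs or past 1 on the log2 scale in another class (at most 6 per list and class), 9 plexins and neuropilins, and the 5 genes most like Sema5a. The members, lists and rules were chosen with earlier results of these data known.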

Additional observations from a re-analysis of the deposited data

Results flagged for a closer look

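3 members lay on opposite sides of 0 in different vessel classes, beyond their counting intervals. Sema3f had a log2 ratio (B16-F10 over control) of 0.54 in gCap-like ECs and -0.21 in aCap-like ECs. Sema3a had 0.63 in LEC-like and -0.59 in aCap-like ECs. Sema3c had 0.46 in artery-like ECs, against -0.18 in gCap-like and -0.12 in aCap-like ECs. With 1 library per group these differences between classes were not tested.

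Sema6d and Sema7a were also higher in B16-F10 among cells outside the named vessel classes. In ECs with no vessel name Sema6d stood at 121 CPM in control and 598 in B16-F10, and Sema7a at 84.6 and 176 CPM. Most of these B16-F10 UMIs of Sema6d came from cluster 12, which had only 8 control cells. In clusters that also carried markers of the platelet, mural, fibroblast or epithelial lists, Sema6d stood at 147 and 246 CPM and Sema7a at 41.9 and 108 CPM. Neither difference was tested.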

How the results depend on the processing

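No paired analysis was possible because there is a single library of either kind, and for that reason no replicate could be left out. Over 12 alternatives by class, the log2 ratio of Sema5a ran from -3.75 to -2.93 in gCap-like and from -1.96 to -1.32 in aCap-like ECs, that of Sema7a in gCap-like ECs from 1.40 to 1.56 and that of Sema3f there from 0.52 to 0.58. Of 367 recomputed member ratios, 311 stayed inside the original counting interval and 56 left it. The sign changed in 15, of which 6 had an original interval without 0, all given below, and 9 an original interval that included 0. Part of the 311 could not have moved. Leaving out clusters below a median of 4000 UMIs, 1 of the 12 alternatives, removed no vessel cluster, as the shallowest had 4039.5. It therefore repeated the original ratios. Raising that limit to 5000 removed only clusters 5 and 9, so outside gCap-like and aCap-like ECs no ratio could change.

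In gCap-like ECs, thinning to 2000 UMIs gave -2.93 for Sema5a, -0.16 for Sema3c and 1.44 for Sema7a, and gave -1.32 for Sema5a in aCap-like ECs. Cells free of other cell types' markers gave -3.75 for Sema5a, -0.20 for Sema3c, -0.28 for Sema3g, 0.42 for Sema6d and 1.40 for Sema7a, and -1.96 for Sema5a in aCap-like ECs. Scaling by the median gene gave -0.14 for Sema3c, -0.24 for Sema6a and 0.52 for Sema6d, and a limit of 500 genes gave -0.16 for Sema3c. Without clusters below a median of 5000 UMIs, a setting chosen after seeing the data, the values were -0.14 for Sema3c, -0.23 for Sema6a and 0.56 for Sema6d, and -1.41 for Sema5a in aCap-like ECs. All ECs summed gave -2.53 for Sema5a, -0.14 for Sema3c, 0.11 for Sema3f, -0.50 for Sema6a, 0.61 for Sema6d and 0.73 for Sema7a.

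Sema3c in artery-like ECs changed sign with no upper limit on genes (-0.27), with the listed genes kept in clustering (-0.037) and in cells free of other markers (-3.24, from 52 control and 13 B16-F10 cells). Sema6d changed sign in aCap-like ECs after thinning (-0.037) and in vein-like ECs without other markers (-0.32), and Sema6a in LEC-like ECs without other markers (1.14, from 1 and 2 cells). The cause was not tested. The share of gCap-like cells with a Sema5a UMI was 15.6% in control and 2.93% in B16-F10 when thinned to 4000 UMIs, and 20.4% and 5.36% unthinned. Of 44 pathway genes measured in artery-like ECs 5 were called higher, or 3 when scaled by the median gene (9.12% of all genes). Of 49 measured in vein-like ECs 1 was called lower (6.39% of all genes), or 3 of 64 at a minimum of 10 UMIs.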

Other observations

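Lymphatic ECs carried a semaphorin of their own among the listed genes, named here after its values were seen. Sema3d, a secreted class 3 member, had 314 UMIs in LEC-like ECs of control and 360 in B16-F10, with a log2 ratio (B16-F10 over control) of 0.16, whereas no other EC cluster with at least 50 cells held more than 3 in either library. Sema3e, the secreted ligand of Plxnd1, was found in few copies, with 30 UMIs in vein-like ECs of control and 10 in B16-F10.

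A small unnamed EC cluster led by Aqp7, Fabp4 and Rbp7, cluster 15, held 173 control and 35 B16-F10 cells. Its control cells had 0 UMIs of Sema5a, although Sema6a stood at 751 CPM there, Sema3g at 132 and Sema7a at 102. Sema3c stood at 47.9 CPM in these cells, far below the 979 CPM or more of the gCap-like clusters of the same library.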
